A study of Mus musculus and Homo sapiens with 18 samples.

Results

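The 10 genes described here encode the enzymes that make long-chain fatty acids from acetyl-CoA and then elongate and desaturate them. They are Acly, Acss2, Acaca, Fasn, Scd1, Scd2, Elovl5, Elovl6, Fads1 and Fads2. They were chosen by gene symbol from the 55858 genes in the deposited table of a mouse bladder tumour model, with the same gene identifiers taken from the table of a mouse bladder cancer line. All 10 passed the filter on low counts in both tables.

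Poly(A) RNA was sequenced from 12 mouse libraries, in 4 groups of 3. The treated tumours came from genetically engineered mice (GEMM) with bladder carcinoma after chemotherapy with cisplatin plus gemcitabine, and are named as relapses in the library names; they were set against control tumours, for which vehicle is the only control the treatment text names. In the mouse line CUUC-G, cells with a guide RNA against Igfbp5 (sgIgfbp5), which encodes a secreted binding protein of insulin-like growth factors, were set against cells with a control guide (sgScr). The series also holds the human bladder cancer line MGHU3, not analysed here. The alleles of the model, the promoter of any transgene, the strain, sex and age of the mice, the number of clones behind each guide and whether libraries came from separate tumours or cultures are not given in the sources used here. The p-values therefore measure the spread between these libraries, which may be technical. The labels call the Igfbp5 samples knockdowns, while the design text of the series speaks of knockouts.

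Cytosolic fatty acid synthesis starts from acetyl-CoA. Acly, ATP citrate lyase, makes it from citrate, and Acss2 makes it from acetate. Acaca, acetyl-CoA carboxylase, turns acetyl-CoA into malonyl-CoA, and Fasn, fatty acid synthase, builds palmitate from it. Elovl6 lengthens palmitate to stearate. Scd1 and Scd2 are stearoyl-CoA desaturases that put the first double bond into saturated chains and so make palmitoleate and oleate. Fads2 and Fads1 are the delta-6 and delta-5 desaturases that convert essential dietary fatty acids to longer polyunsaturated ones, with Elovl5 elongating the chain between their steps. Many genes of the pathway are targets of the SREBP transcription factors, which are cleaved to their active form when membrane sterols are low.

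Of the 10 genes, 4 lie in clusters of related genes on chromosome 19 (coordinates from GENCODE M21 on GRCm38). Fads2 (chr19:10062765-10101746, minus strand) lies between Fads3 (chr19:10041569-10060110) and Fads1 (chr19:10182888-10196877). Scd2 (chr19:44293674-44306864) and Scd1 (chr19:44394455-44407879) flank Scd4 (chr19:44333092-44346743). Chromosome 11 holds Acaca (chr11:84129672-84401651), Acly (chr11:100476353-100528000) and Fasn (chr11:120805846-120824547). Acss2 is at chr2:155517948-155585724, Elovl6 at chr3:129532355-129638495 and Elovl5 at chr9:77917364-77984519.

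Promoter sequences are shown because 9 of these genes rose at relapse and all 10 fell with sgIgfbp5, and were searched for letters known to be bound by regulators of this pathway. RefSeq (GRCm38.p6) promoters were given for 7 of the 10 genes, all but Scd1, Scd2 and Fads1. The search covered the 250 bases upstream of each RefSeq start, on both strands, for TCACNCCAC (the core of a sterol response element), CCAAT (bound by NF-Y), GGGCGG (the GC box bound by Sp1) and CACGTG (the E-box bound by USF and ChREBP-type factors). Overlapping matches were each counted. The 3 promoters printed lie outside the annotated gene except for at most 1 base, and their matches are in capitals. The other 4 windows lie partly or wholly inside the gene as GENCODE M21 annotates it, with 250 of 250 bases for Acaca, 243 for Fads2, 95 for Acss2 and 31 for Elovl6.

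Fasn promoter, chr11:120824548-120824797, minus strand: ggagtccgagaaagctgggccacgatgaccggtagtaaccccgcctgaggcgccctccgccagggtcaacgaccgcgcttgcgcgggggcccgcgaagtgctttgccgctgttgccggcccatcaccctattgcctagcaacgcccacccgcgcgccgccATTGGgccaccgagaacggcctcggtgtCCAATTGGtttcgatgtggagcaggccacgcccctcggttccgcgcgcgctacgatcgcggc
Acly promoter, chr11:100528001-100528250, minus strand: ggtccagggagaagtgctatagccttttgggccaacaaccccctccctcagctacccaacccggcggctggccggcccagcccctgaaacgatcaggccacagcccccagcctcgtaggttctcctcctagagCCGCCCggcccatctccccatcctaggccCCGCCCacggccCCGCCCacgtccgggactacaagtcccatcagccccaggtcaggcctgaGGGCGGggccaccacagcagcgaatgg
Elovl5 promoter, chr9:77917115-77917364, plus strand: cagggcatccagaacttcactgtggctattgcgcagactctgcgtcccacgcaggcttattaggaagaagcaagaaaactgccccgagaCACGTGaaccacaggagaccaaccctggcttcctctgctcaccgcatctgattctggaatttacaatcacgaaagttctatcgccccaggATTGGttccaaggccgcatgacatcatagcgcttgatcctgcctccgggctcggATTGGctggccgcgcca

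The Fasn window held 3 CCAAT matches, of which 2 share bases, the Elovl5 window held 2 and the Acss2 window held 1. CCAAT occurred in 33.85% of the 32851 mouse promoters of this length. The GC box was found 4 times in the Acly window, 4 times in the Acss2 window and once in the Fads2 window, and in 32.742% of all promoters. The E-box was found in the Elovl5 window and in 6.021% of all promoters. The sterol response core was in 0 of the 7 windows and in 1.053% of all promoters; these letters are absent from these windows, and nothing follows for sites elsewhere. The windows of Acaca and Elovl6 held none of the 4 motifs, and that of Acaca is not upstream of the annotated gene.

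Several facts of the libraries touch every result below. Total estimated counts lay between 18.965 and 21.757 in the tumour libraries and between 19.211 and 20.73 in CUUC-G, in units of 1e6. The relapsed tumours were nearly as like the sgScr libraries of CUUC-G (Pearson r of log2(TPM + 1) over 16549 genes 0.973 to 0.975) as they were like each other (0.977 to 0.979), while r with the control tumours was 0.915 to 0.919. The labels do not say how the tumours and the line are related, nor whether tumour tissue or cells grown from it were sequenced. Relapsed and control tumours below are therefore the names the labels give, and every difference between them may include one between tissue or cell sources. The mouse comparisons are not taken as independent of each other. The Y-linked gene Ddx3y is listed at 0 in relapsed tumours and in all CUUC-G libraries, against 27.8, 31.5 and 29.7 TPM (transcript abundance scaled to gene length and library total) in control tumours. The labelled bladder tissue was checked with marker lists in summed TPM. Of 12 urothelial and epithelial markers, Krt5 and Upk3a were at 0, and the sum was 662 to 684 in relapsed against 11.8 to 14 in control tumours. Under 1 TPM in every library were 6 of these markers in relapsed and 7 in control tumours. The 7 fibroblast and mesenchymal markers summed to 4681 to 4822 in relapsed against 7248 to 7502 in control tumours. That list was split: Col1a1, Col1a2 and Col3a1 were lower in relapsed tumours, while Vim averaged 2401 TPM in relapsed and 1664 TPM in control tumours, and Pdgfra, Dcn and Lum were also higher on average. The 10 immune markers summed to 1.14 to 3.44 in relapsed and 0.655 to 1.64 in control tumours, with Cd3e at 0 in both. Of 6 endothelial markers, Tie1 was at 0 and 5 were under 1 TPM in every relapsed tumour, and the sum was 36.9 to 40.0 in relapsed against 0.490 to 0.951 in control tumours. Kdr made up nearly all of the relapsed sum. It averaged 37.9 TPM in relapsed and 0.387 TPM in control tumours, and 1.93 TPM with sgIgfbp5 and 35.4 TPM with sgScr. Adipocytes and hepatocytes, which make much fat, were checked as well. Among 8 adipocyte markers Adipoq, Lep and Cidec were at 0 in all 6 tumour libraries, and the sum was 7.05 to 11.9 in relapsed against 1.67 to 2.67 in control tumours. Fabp4 was the highest of these markers at relapse, at 6.65 TPM on average against 0.132 TPM in control tumours. The 6 hepatocyte markers summed to at most 0.188 in any tumour library. In CUUC-G, sgIgfbp5 against sgScr cells had a sum of 2.14 to 2.75 against 10.1 to 11.2 for the adipocyte markers, of 122 to 141 against 691 to 714 for the epithelial markers and of 1885 to 2085 against 4661 to 4853 for the fibroblast markers. These lists were split as well. Col3a1 averaged 364 TPM with sgIgfbp5 and 174 TPM with sgScr. Upk1a (1.39 against 0.421 TPM) and Trp63 (0.508 against 0.335 TPM) were also higher on average with sgIgfbp5. So were the adipocyte markers Retn, Cfd and Plin1, all under 1 TPM. The part of these differences in the results below was not tested. In bulk RNA, fewer cells of a type and less RNA per cell cannot be told apart.

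Fatty acid synthesis and desaturation genes were higher in relapsed than in control tumours, most of all Elovl6, Fasn, Fads2 and Scd1. Of the 10 genes, 9 rose, 0 fell and Acss2 was not past the threshold (edgeR adjusted p under 0.05). In that comparison 73.5% of all 14373 genes tested were called and 36.6% were called higher. The median log2 fold change was 1.05 over the 10 genes and 0.00 over all genes. Summed over the 10 genes, the level was 2171, 2176 and 2151 TPM in relapsed tumours, against 1066, 1102 and 1059 TPM in control tumours.

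In CUUC-G with sgIgfbp5 the same genes were lower than with sgScr. All 10 passed the threshold, against 70.8% of all 14553 genes tested and 34.3% called lower. The median log2 fold change was -1.31 over the 10 genes and 0.06 over all genes. The summed level was 797, 847 and 900 TPM with sgIgfbp5, and ran between 1860 and 2197 TPM with sgScr. Igfbp5 itself was low in every library: 12, 8 and 10 counts with sgIgfbp5 against 20, 51 and 43 counts with sgScr, where the log2 fold change was -2.0 ± 0.42 (SE) with an edgeR adjusted p of 0.00125. In the tumours Igfbp5 had 36, 64 and 49 counts at relapse against 4, 17 and 6 counts in controls, where it was 2.44 ± 0.44 (edgeR adjusted p = 1.97e-05). A guide RNA need not lower its target's transcript, so these counts check the labels only in part.

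**Figure D1:**
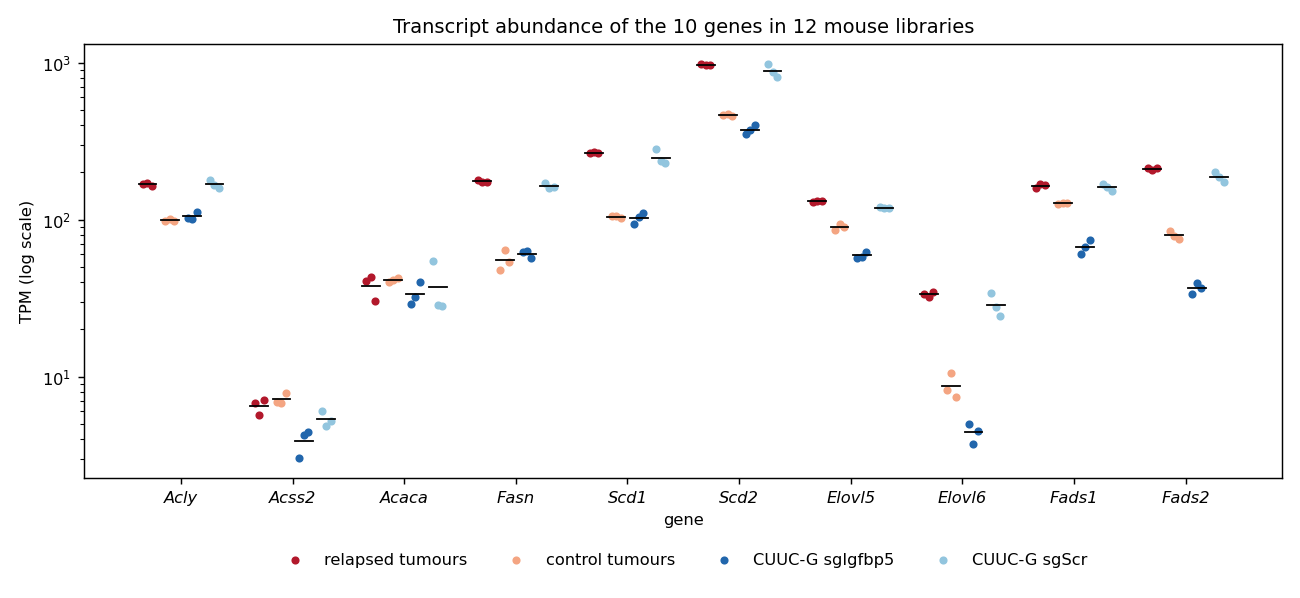
Transcript abundance (TPM, log axis) of the 10 genes. Each dot is 1 library and each line a group mean of 3 libraries, in the order relapsed tumours, control tumours, CUUC-G sgIgfbp5 and CUUC-G sgScr. Scd2 is the highest gene in every group, at 971 TPM on average in relapsed and 464 TPM in control tumours, and for Acss2 and Acaca the relapsed and control dots overlap.

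Of the enzymes that supply acetyl-CoA, Acly passed the threshold in both comparisons and Acss2 with sgIgfbp5 alone; the difference between them was not tested. Acly had 168, 172 and 165 TPM in relapsed tumours, against 98.3, 101 and 98.0 TPM in control tumours. The groups did not overlap, and the log2 fold change on the count scale was 0.90 ± 0.03 (SE; edgeR adjusted p = 9.09e-20), a 1.86-fold higher level. In CUUC-G Acly had 103, 101 and 111 TPM with sgIgfbp5 and 178, 167 and 159 TPM with sgScr. Again every sgIgfbp5 library was below every sgScr library, with a log2 fold change of -0.78 ± 0.06 (edgeR adjusted p = 5.8e-07).

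Acss2 was the lowest of the 10 genes in all 4 groups. It had 6.83, 5.67 and 7.12 TPM in relapsed tumours, against 6.85, 6.78 and 7.82 TPM in control tumours. These values overlapped, and the log2 fold change was -0.01 (95% interval -0.25 to 0.22; edgeR adjusted p = 0.919), so a change of more than about 0.25 on the log2 scale lies outside the interval in either direction. With sgIgfbp5 it had 3.02, 4.26 and 4.46 TPM, against 6.03, 4.85 and 5.20 TPM with sgScr. All 3 sgIgfbp5 values were lower, and the log2 fold change was -0.57 ± 0.15 (edgeR adjusted p = 0.0059), on 460 and 638 counts over the 3 libraries of each group. On log2(TPM + 1) this call was lost, with a difference of -0.38 and a limma adjusted p of 0.069, and between 0.069 and 0.119 over the 3 limma fits.

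The carboxylase and the synthase are consecutive steps. Acaca had 40.5, 43.3 and 30.1 TPM in relapsed tumours, against 40.1, 41.4 and 42.3 TPM in control tumours. On this scale the groups overlapped. On counts, Acaca averaged 160 ± 5.93 CPM (counts scaled to the TMM-corrected library total) in relapsed and 137 ± 7.29 CPM in control tumours (SD, n = 3 each), without overlap and with a log2 fold change of 0.23 ± 0.04 (edgeR adjusted p = 2.87e-05). On log2(TPM + 1) the sign turned, to -0.13 with a limma adjusted p of 0.398 (0.395 to 0.482 over the 3 limma fits), where the median over all genes was -0.12.

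Short transcripts weighed more on the TPM scale of Acaca than on its count scale. The full-length coding transcript Acaca-201 (9026 bases) held 3111, 3015 and 2974 estimated counts in relapsed, against 2679, 2354 and 2546 in control tumours. It rose by 0.27 ± 0.04 on the log2 scale (edgeR adjusted p = 0.0025 over transcripts). The short transcripts Acaca-206 and Acaca-208 (431 and 684 bases) together held 59, 75 and 20 counts in relapsed and 56, 55 and 44 counts in control tumours. Because TPM divides by length, these few counts made up 34.3%, 38.1% and 17.2% of the gene's TPM in relapsed tumours, against 45.1%, 41.4% and 32.0% in control tumours.

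Acaca averaged 124 ± 9.58 CPM with sgIgfbp5 and 158 ± 27.1 CPM with sgScr in CUUC-G (SD, n = 3 each). It fell by 0.35 ± 0.11 on the log2 scale of counts (edgeR adjusted p = 0.0185). Its levels were 29.1, 32.0 and 40.3 TPM with sgIgfbp5, against 54.1, 28.6 and 28.3 TPM with sgScr. These TPM values overlapped, with sgScr replicate 1 high. The call was lost with library-size scaling only (-0.24, edgeR adjusted p = 0.0954) and on log2(TPM + 1) (-0.07, limma adjusted p = 0.818, and 0.815 to 0.843 over the 3 limma fits).

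Fasn had 178, 175 and 174 TPM in relapsed tumours, against 47.4, 64.5 and 53.6 TPM in control tumours. The groups were far apart, and the log2 fold change was 1.76 ± 0.03 (SE; edgeR adjusted p = 9.71e-26), a 3.40-fold higher level. With sgIgfbp5 Fasn had 61.8, 62.7 and 56.8 TPM, against 172, 159 and 161 TPM with sgScr. The groups did not overlap, and the log2 fold change was -1.30 ± 0.09 (edgeR adjusted p = 3.08e-07). Both main coding transcripts of Fasn rose in relapsed tumours, by 1.73 ± 0.05 for Fasn-205 and by 1.85 ± 0.04 for Fasn-201 on the log2 scale. A short transcript with a retained intron, Fasn-202 (762 bases), held 2.44% of the gene's counts but 30.5% of its TPM on average in relapsed tumours, and 2.04% of counts and 25.6% of TPM in control tumours. It rose by 2.02 ± 0.43 (edgeR adjusted p = 0.0159), with 386, 362 and 337 counts at relapse against 45.2, 133 and 85.3 counts in controls.

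Of the stearoyl-CoA desaturases, Scd2 was the most abundant member in every group. Scd1 stood below Fads1 in control tumours and, with overlap, below Acly with sgIgfbp5. Together these desaturases held over 50% of the summed TPM of the 10 genes in every group. Their share of that sum averaged 57.2% ± 0.0968 in relapsed and 52.8% ± 0.608 in control tumours, and 56.3% ± 0.537 with sgIgfbp5 and 56.6% ± 0.884 with sgScr (SD, n = 3 each). In adult mice Scd1 is best known as the desaturase of liver and fat, and Scd2 as that of brain and many other tissues. Scd2 had 977, 973 and 963 TPM in relapsed tumours, against 466, 472 and 454 TPM in control tumours. No library of one group came near the other, and the log2 fold change was 1.20 ± 0.03 (edgeR adjusted p = 4.7e-25). Scd1 had 266, 269 and 267 TPM in relapsed tumours, against 105, 105 and 103 TPM in control tumours. Its log2 fold change was 1.5 ± 0.03 (edgeR adjusted p = 3.14e-25), a 2.82-fold higher level against 2.30-fold for Scd2.

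With sgIgfbp5 both desaturases were lower. Scd2 had 349.8, 375 and 399.9 TPM with sgIgfbp5, against 985, 872 and 808 TPM with sgScr. Scd1 had 93.5, 104 and 110.0 TPM with sgIgfbp5, against 279.9, 235 and 230.3 TPM with sgScr. Neither gene's groups overlapped, and the log2 fold changes were -1.33 ± 0.08 for Scd2 (edgeR adjusted p = 3.81e-08) and -1.35 ± 0.08 for Scd1 (edgeR adjusted p = 4.84e-08).

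The balance between the paralogs was examined as the Scd2 share of their summed TPM. It was 78.6%, 78.3% and 78.3% in relapsed tumours, against 81.6%, 81.8% and 81.5% in control tumours. The shares did not overlap and differed by -3.24 percentage points, with a two-sided exact permutation p of 0.1, the smallest that 3 against 3 libraries allow. In CUUC-G the share was 78.9%, 78.3% and 78.4% with sgIgfbp5, against 77.9%, 78.8% and 77.8% with sgScr. These overlapped, and the difference was 0.392 percentage points (two-sided exact permutation p = 0.3). Because similar sequences can share reads, Scd1 and Scd2 were also summed as 1 gene, which gave a log2 fold change of 1.25 ± 0.02 at relapse (edgeR adjusted p = 1.02e-25) and -1.33 ± 0.08 with sgIgfbp5 (edgeR adjusted p = 4.15e-08). The neighbouring paralogs Scd3 and Scd4 were too low to be tested, with Scd4 at 0.381 CPM in relapsed and 0.383 CPM in control tumours.

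Among the elongases, Elovl6, which acts on palmitate, had the largest change of the 10 genes in both comparisons. It had 33.8, 32.2 and 34.3 TPM in relapsed tumours, against 8.19, 10.5 and 7.36 TPM in control tumours. The groups were well separated, and the log2 fold change was 2.16 ± 0.10 (edgeR adjusted p = 1.17e-08), a 4.47-fold higher level. With sgIgfbp5 it had 5.02, 3.73 and 4.47 TPM, against 34.0, 27.8 and 24.3 TPM with sgScr. Its log2 fold change there was -2.80 ± 0.13 (edgeR adjusted p = 8.48e-09), a 6.96-fold lower level.

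Elovl5, the elongase of polyunsaturated chains, had 129.6, 132 and 132 TPM in relapsed tumours, against 86.1, 94.0 and 89.3 TPM in control tumours. All relapsed values were higher, with a log2 fold change of 0.68 ± 0.04 (edgeR adjusted p = 3.11e-15). With sgIgfbp5 it had 57.1, 58.2 and 62.0 TPM, against 121, 118 and 119 TPM with sgScr. The log2 fold change was -1.10 ± 0.06 (edgeR adjusted p = 5.24e-08), again without overlap.

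The delta-6 and delta-5 desaturases, neighbours on chromosome 19, both rose at relapse. Fads2 had 212, 206.7 and 212 TPM in relapsed tumours, against 84.1, 79.2 and 75.8 TPM in control tumours. The log2 fold change was 1.60 ± 0.03 (edgeR adjusted p = 1.05e-24), with no overlap. Fads1 had 159.8, 168 and 166 TPM in relapsed tumours, against 125, 128 and 128 TPM in control tumours. Its groups did not overlap either, and the log2 fold change was 0.49 ± 0.03 (edgeR adjusted p = 1.7e-13).

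In CUUC-G Fads2 had 33.8, 39.7 and 36.9 TPM with sgIgfbp5, against 199.9, 186 and 173 TPM with sgScr. The log2 fold change was -2.44 ± 0.08 (edgeR adjusted p = 4.72e-10), a 5.41-fold lower level. Fads1 had 60.7, 66.7 and 74.0 TPM with sgIgfbp5, against 168, 163 and 152 TPM with sgScr. Its log2 fold change was -1.36 ± 0.08 (edgeR adjusted p = 3.05e-08), and neither gene's groups overlapped. Whether Fads1 and Fads2 changed by unequal amounts was not tested; their 95% intervals were 0.42 to 0.56 and 1.53 to 1.67 at relapse, and -1.53 to -1.19 and -2.61 to -2.27 with sgIgfbp5. In CPM, the groups did not overlap for 9 of the 10 members at relapse and for 10 of 10 with sgIgfbp5, against 75.3% and 73.9% of all genes tested.

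**Figure D2:**
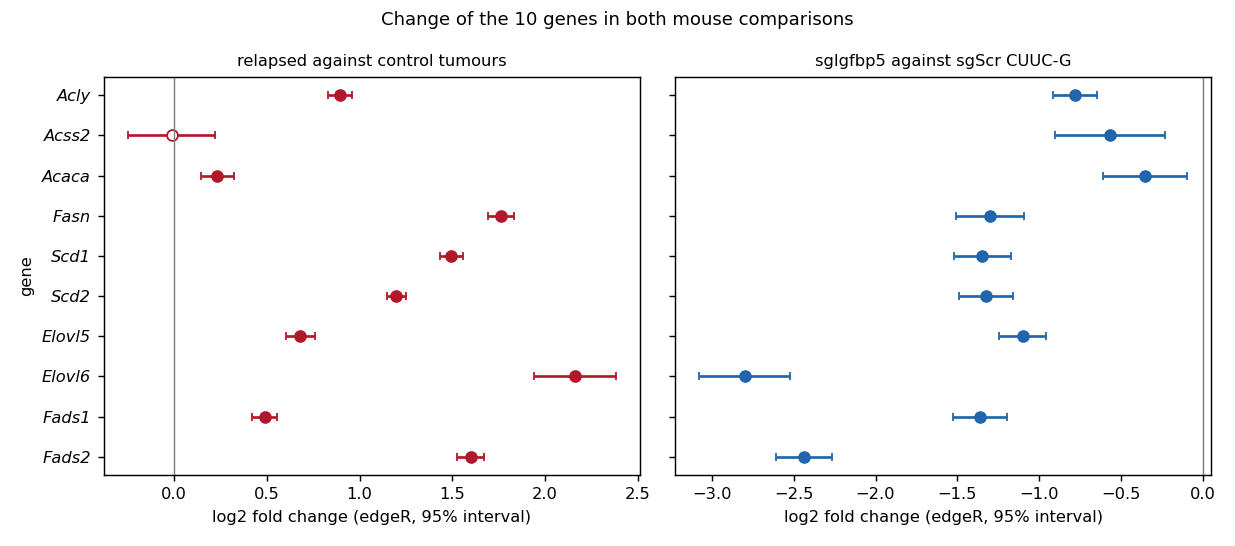
Log2 fold change (edgeR, dots) with 95% intervals (bars) of the 10 genes, relapsed against control tumours on the left and sgIgfbp5 against sgScr CUUC-G on the right; each panel has its own horizontal scale. The open dot, Acss2 at -0.01, did not pass an adjusted p of 0.05. Elovl6 lies farthest from 0 in both panels, at 2.16 and -2.80.

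The order of levels within the set also differed between groups. In relapsed tumours it ran, by mean TPM, Scd2, Scd1, Fads2, Fasn, Acly, Fads1, Elovl5, Acaca, Elovl6 and Acss2, and neighbours overlapped only for Acly with Fads1 and Acaca with Elovl6. In control tumours Fads1 stood second and Fasn seventh, and only the neighbours Elovl6 and Acss2 overlapped. The place of Fasn depends on the short transcript Fasn-202, which held 30.5% of its TPM on average in relapsed tumours. Fasn-205 had 89.1, 90.7 and 95.2 TPM and Fasn-201 24.8, 24.7 and 26.1 TPM in relapsed tumours, where Elovl5 averaged 131 TPM. Without Fasn-202, Fasn would stand below Elovl5 there. The place of Acaca above Elovl6 in relapsed tumours depends likewise on Acaca-206 and Acaca-208. These short transcripts held 34.3%, 38.1% and 17.2% of its TPM there. Acaca-201 had 24.2, 23.4 and 22.6 TPM in relapsed tumours, where the lowest Elovl6 value was 32.2 TPM. Without the short pair, Acaca would stand below Elovl6 there. With sgIgfbp5 Acly stood second and Fads2 seventh; with sgScr the order matched that of the relapsed tumours except that Acly stood above Fasn. Neighbours that overlapped with sgIgfbp5 were Acly with Scd1, Fads1 with Fasn, Fasn with Elovl5, Fads2 with Acaca and Elovl6 with Acss2. With sgScr they were Fads2 with Acly, Acly with Fasn, Fasn with Fads1 and Acaca with Elovl6. Fads1 and Fads2 together made up 12.2% ± 0.352 of the summed TPM with sgIgfbp5 and 17.3% ± 0.525 with sgScr, while Acly and Acss2 made up 12.8% ± 0.425 with sgIgfbp5 and 8.66% ± 0.264 with sgScr (SD, n = 3 each). At relapse Fads1 and Fads2 held 17.3% ± 0.239, against 19.2% ± 0.379 in control tumours.

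The tumour table was by transcript, so splice forms could be followed there. It listed 57 transcripts of the 10 genes, of which 23 were abundant enough to test. Of these 14 rose, 0 fell and 9 were not past the threshold, in a comparison in which 32.5% of all 32281 transcripts tested were called and 16.2% were called higher. A changed share of the gene's output was tested for 19 of them and called for 1, Fads1-202, against 1.73% of all 26254 transcripts tested. Fads1-202 was below the level at which transcripts were otherwise named and is given because it was the single call, seen with its values known. It is also counted among the 14 that rose. It passed the low-count filter through the relapsed libraries alone, so its place in both counts is a description only.

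Fads1-202 lacks exon 2 of the main transcript Fads1-201, a coding exon of 111 bases, or 37 codons, at chr19:10184927-10185037 on the plus strand (GRCm38). The sequences of both junctions follow from the GENCODE M21 transcripts, with 15 bases of the exon on either side in lower case and exon 2 in capitals.
Fads1-201, exons 1 to 3: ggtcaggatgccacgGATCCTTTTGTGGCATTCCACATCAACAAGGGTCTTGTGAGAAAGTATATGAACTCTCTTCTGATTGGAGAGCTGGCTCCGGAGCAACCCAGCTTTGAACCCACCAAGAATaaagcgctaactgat
Fads1-202, exon 1 joined to exon 3: ggtcaggatgccacgaaagcgctaactgat

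Fads1-202 had 409, 210 and 156 estimated counts in relapsed tumours, and 0 counts in each control tumour. On these estimates it was at least 256-fold higher at relapse, from 776 counts against a floor of 3 counts over the control group. This bound covers counting error only and not the division of reads shared with Fads1-201, so it may not hold. Fads1-202 passed the low-count filter through the relapsed libraries alone, so its call is given with no p and as a description. It was a minor form, at 5.60%, 2.79% and 2.02% of the counts of both transcripts in relapsed tumours. Fads1-201 had 6900, 7306 and 7571 counts in relapsed against 5847, 5010 and 5318 counts in control tumours, a log2 fold change of 0.43 ± 0.03 (edgeR adjusted p = 0.000265). The authors' tool divides reads shared by transcripts by estimation, and reads over the junction were not used here.

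Acly has coding transcripts with and without exon 14 of 29, which has 30 bases, or 10 codons, at chr11:100503160-100503189 on the minus strand (GRCm38). The sequences show this exon in capitals, again with 15 bases on either side. Acly-203 holds it, and Acly-207 and Acly-201 skip it.
Acly-203, exons 13 to 15: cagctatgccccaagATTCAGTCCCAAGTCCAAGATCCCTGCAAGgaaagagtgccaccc
Acly-201 and Acly-207, exon 13 joined to the next: cagctatgccccaaggaaagagtgccaccc

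Acly-203 held 62.7%, 57.6% and 56.9% of the estimated counts of the 3 transcripts in relapsed tumours, against 44.7%, 42.8% and 43.2% in control tumours. The relapsed values were all higher. Acly-203 itself had 6140, 5655 and 5565 counts in relapsed against 2574, 2142 and 2220 counts in control tumours, a log2 fold change of 1.33 ± 0.05 (edgeR adjusted p = 1.67e-05). Acly-207 rose by 1.43 ± 0.31 (edgeR adjusted p = 0.0155). Acly-201 had 1248, 435 and 2260 counts in relapsed and 1783, 2141 and 1995 counts in control tumours, which overlap, and was not past the threshold (log2 fold change -0.60 ± 0.54, edgeR adjusted p = 0.476). None of the 3 passed the test of a changed share, with diffSpliceDGE adjusted p between 0.122 for Acly-201 and 1 for the others, and this test found few of the changes put into simulated counts, so the difference in exon 14 use is a description of these libraries. The pair Acly-201 and Acly-207 varied in opposite directions between relapsed libraries, and their division depends on how shared reads were split.

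**Figure D3:**
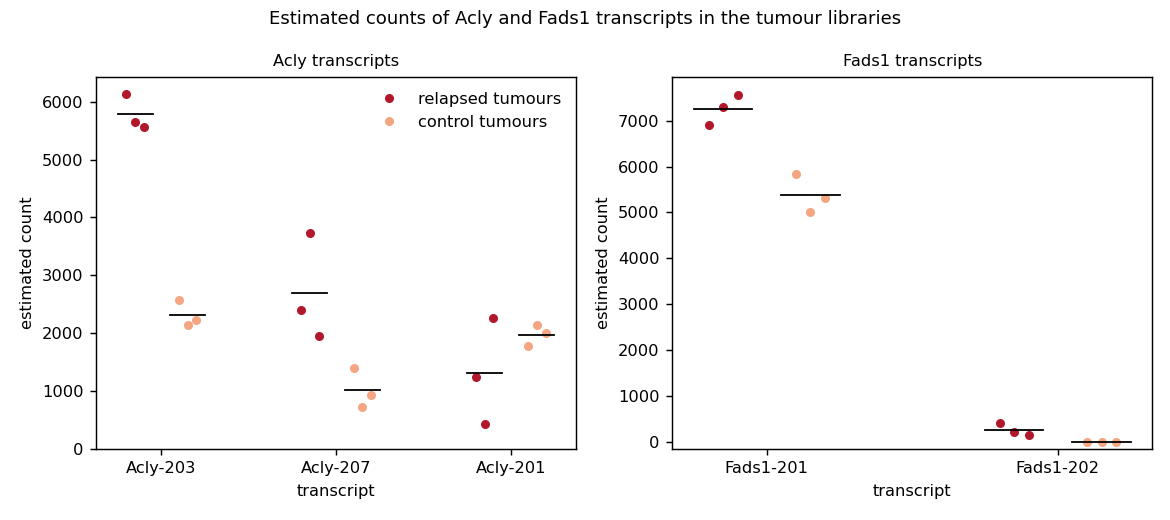
Estimated counts of the main Acly transcripts (left) and of Fads1-201 and Fads1-202 (right) in relapsed and control tumours. Each dot is 1 library and each line a group mean of 3. Fads1-202 has 156 to 409 counts in relapsed tumours and 0 in control tumours, and Acly-201 overlaps between the groups.

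The surrounding pathways are described by counts, which were not tested against other genes. Over all genes, 36.6% were called higher and 36.9% lower at relapse, and 36.5% higher and 34.3% lower with sgIgfbp5. Of 14 tested genes of SREBP, LXR and ChREBP control, 7 rose, 3 fell and 4 were not past the threshold in relapsed tumours, with a median log2 fold change of 0.30. With sgIgfbp5 5 rose, 7 fell and 2 were not past the threshold, with a median of -0.07. Insig1, a sterol-regulated protein that holds SREBP in the endoplasmic reticulum, averaged 147 ± 4.70 TPM in relapsed and 36.5 ± 2.27 TPM in control tumours, and 21.6 ± 2.68 TPM with sgIgfbp5 and 136 ± 7.51 TPM with sgScr (SD, n = 3 each). Its log2 fold changes were 2.10 ± 0.05 at relapse (edgeR adjusted p = 3.75e-24) and -2.73 ± 0.09 with sgIgfbp5 (edgeR adjusted p = 7.1e-10).

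Both SREBP genes rose at relapse and fell with sgIgfbp5. Srebf1, the SREBP most tied to fatty acid synthesis, changed by 0.82 ± 0.05 at relapse and by -0.97 ± 0.07 with sgIgfbp5 on the log2 scale (edgeR adjusted p = 2.74e-15 and 1.54e-07). Srebf2, which drives cholesterol genes, changed by 0.35 ± 0.03 and -0.78 ± 0.07 (edgeR adjusted p = 7.87e-11 and 1.94e-06). Scap, the escort of SREBP, changed by 0.34 ± 0.05 and -0.47 ± 0.08, and Mid1ip1, which promotes polymerization of the carboxylase, by 0.76 ± 0.04 and -0.27 ± 0.08, all 4 past the threshold. The liver X receptor gene Nr1h2 was not past the threshold at relapse (0.02 ± 0.06, edgeR adjusted p = 0.752) and rose by 0.30 ± 0.08 with sgIgfbp5 (edgeR adjusted p = 0.00728). Mlxipl, which encodes ChREBP, and Thrsp were too low to be tested, with group means of at most 0.141 TPM.

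Of 15 tested genes that supply citrate, acetate and NADPH, 9 rose, 5 fell and 1 was not past the threshold at relapse. With sgIgfbp5 1 rose, 8 fell and 6 were not past the threshold. The mitochondrial citrate carrier Slc25a1 and the malic enzyme Me1, named after their values were seen, changed by 1.27 ± 0.05 and 0.76 ± 0.03 at relapse and by -1.41 ± 0.09 and -1.84 ± 0.07 with sgIgfbp5 on the log2 scale. Citrate synthase, Cs, changed by 0.42 ± 0.03 and -0.26 ± 0.06, and the lactate exporter Slc16a3 by 2.09 ± 0.04 and -2.92 ± 0.08. All of these passed the threshold. Mdh2, mitochondrial malate dehydrogenase, rose by 0.93 ± 0.04 at relapse and was not past the threshold with sgIgfbp5 (-0.12 ± 0.07, edgeR adjusted p = 0.165).

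Partners of the carboxylase and synthase include the mitochondrial fatty acid synthesis genes. Of 8 tested, 0 rose, 5 fell and 3 were not past the threshold, with a median log2 fold change of -0.34. With sgIgfbp5 3 rose, 0 fell and 5 were not past the threshold, with a median of 0.06. Mecr, the enoyl reductase of the mitochondrial pathway, averaged 24.8 ± 2.36 TPM in relapsed and 42.2 ± 5.57 TPM in control tumours (SD, n = 3 each). Its log2 fold change was -0.56 ± 0.09 at relapse (edgeR adjusted p = 3.35e-06) and 0.90 ± 0.10 with sgIgfbp5 (edgeR adjusted p = 1.41e-05).

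The electron donors and remaining desaturases held both directions. Of 6 tested, 4 rose and 2 fell at relapse, and 1 rose and 5 fell with sgIgfbp5. Cyb5a, the cytochrome that passes electrons to these desaturases, averaged 362 ± 6.60 TPM in relapsed and 112 ± 5.48 TPM in control tumours, and changed by 1.82 ± 0.05 there and by -2.03 ± 0.09 with sgIgfbp5 (edgeR adjusted p = 2.39e-22 and 7.72e-09). Its reductase Cyb5r3 changed by -0.09 ± 0.03 at relapse and by -1.10 ± 0.07 with sgIgfbp5. Degs1, the dihydroceramide desaturase, changed by 0.90 ± 0.04 and -0.61 ± 0.07. Fads3, the neighbour of Fads2 and a desaturase of sphingoid bases, was opposite to Fads1 and Fads2 in both comparisons. It had 129 ± 8.11 TPM in relapsed and 376 ± 33.9 TPM in control tumours, and 146 ± 14.4 TPM with sgIgfbp5 and 118 ± 7.53 TPM with sgScr (SD, n = 3 each). Its log2 fold changes were -1.37 ± 0.03 (edgeR adjusted p = 2.45e-23) and 0.44 ± 0.07 (edgeR adjusted p = 0.000264).

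Among the other elongases and enzymes of the elongation cycle, 7 of 10 rose, 2 fell and 1 was not past the threshold at relapse, and 2 rose, 6 fell and 2 were not past the threshold with sgIgfbp5. Hsd17b12, the ketoacyl reductase of the cycle, changed by 0.41 ± 0.04 at relapse and -1.51 ± 0.06 with sgIgfbp5, and Tecr, the last reductase, by 0.27 ± 0.04 and -0.44 ± 0.07. Elovl1, an elongase of very long saturated chains, changed by 0.16 ± 0.05 and -0.41 ± 0.07. Hacd1, a dehydratase of the cycle, fell in both, by 0.51 ± 0.07 and by 0.50 ± 0.11 on the log2 scale. In fatty acid activation and uptake, 11 of 13 rose and 2 fell at relapse, with a median log2 fold change of 1.22, and 1 rose, 11 fell and 1 was not past the threshold with sgIgfbp5, with a median of -0.92. Acsl4, which activates arachidonate, changed by 1.34 ± 0.04 and -2.03 ± 0.15, and the fatty acid binding protein gene Fabp5 by 1.28 ± 0.07 and -1.18 ± 0.09. Lipoprotein lipase, Lpl, was opposite, with 26.7 ± 1.07 TPM in relapsed and 193 ± 9.59 TPM in control tumours (log2 fold change -2.71 ± 0.04) and a log2 fold change of 0.88 ± 0.10 with sgIgfbp5.

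**Figure D4:**
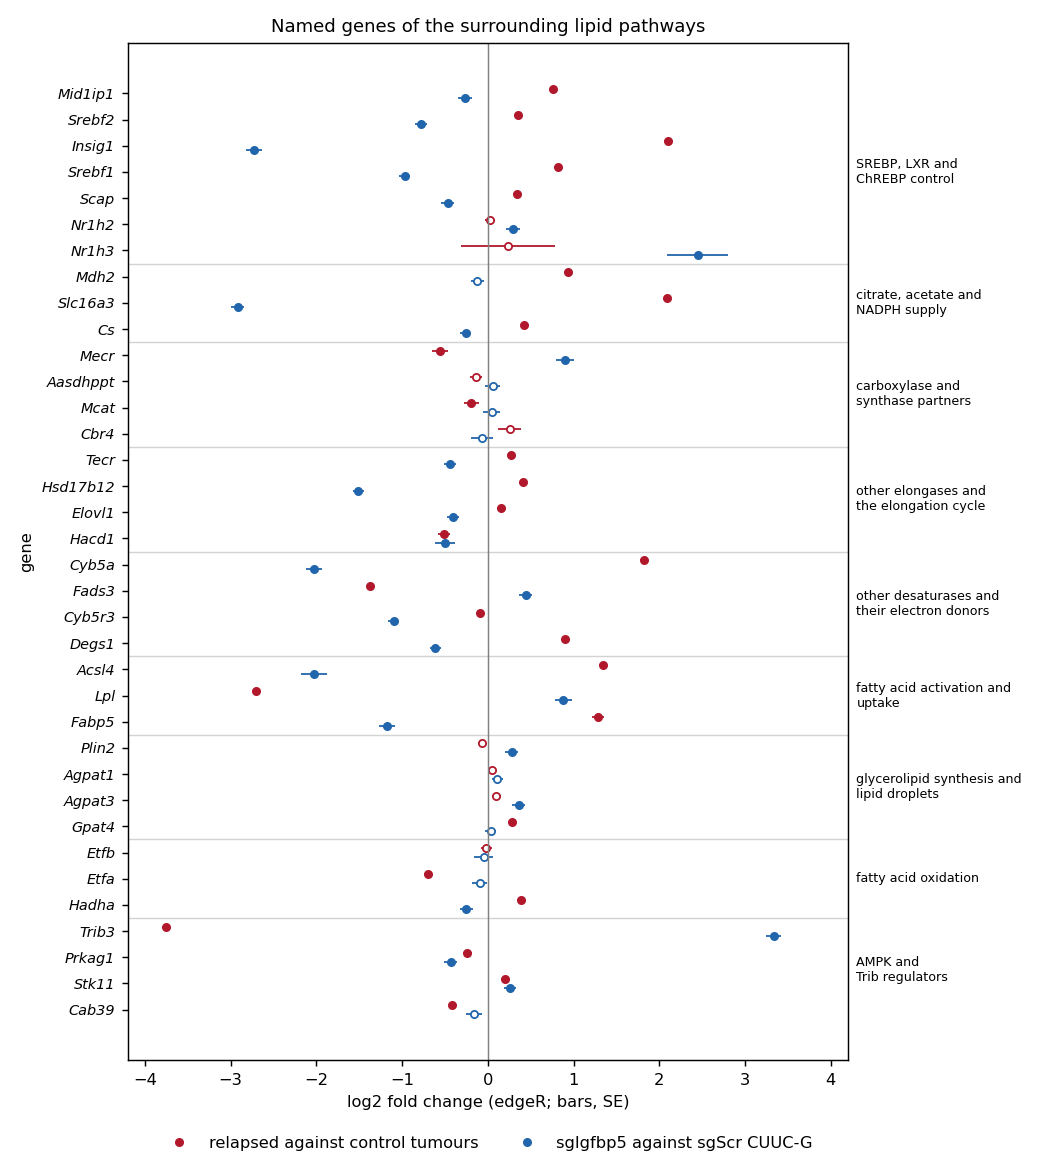
Log2 fold change (edgeR, dots; bars, SE) of named genes of the surrounding lipid pathways, relapsed against control tumours in red and sgIgfbp5 against sgScr CUUC-G in blue. Filled dots passed an adjusted p of 0.05 and open dots did not. Insig1, Slc16a3 and Cyb5a lie right of 0 at relapse and left of 0 with sgIgfbp5, and Fads3, Lpl and Trib3 the other way.

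The genes most like Fasn across all 12 libraries were not lipid synthesis genes by name. By Pearson correlation of log2(TPM + 1), as a description over libraries that fall into 4 groups and were processed in separate tables, the 5 nearest of 10221 genes with a mean of at least 5 TPM were Rgs4 (0.997), Cd9 (0.995), Pdzrn3 (0.994), Plau (0.994) and Isyna1 (0.993). Cd9 encodes a tetraspanin and averaged 259 TPM in relapsed and 106 TPM in control tumours, and 107 TPM with sgIgfbp5 and 241 TPM with sgScr. In all, 841 genes, or 8.228%, had a correlation above 0.9. Acly (0.984) and Scd1 (0.983) ranked 72 and 78, Scd2 (0.955) and Elovl6 (0.938) ranked 357 and 520, and Fads2 (0.886), Elovl5 (0.840) and Fads1 (0.727) ranked 936, 1230 and 1878. Acss2 had a correlation of 0.166 and Acaca of -0.05. The value for Acaca rests on gene TPM, to which short transcripts with few counts added much in the tumours. On counts Acaca had the same direction as Fasn in both comparisons, and a correlation on counts was not computed.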

How the data were processed

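RNA from 12 mouse libraries (4 groups of 3) was analysed; libraries were stranded poly(A) preparations per the labels' protocols. Salmon is named without a version per the submitters' processing notes, which also name GRCm38 (mm10) and GRCh38 (hg38). The authors deposited estimated counts and TPM for 147828 mouse transcripts of the tumours, with gene identifiers and symbols in the row names, and transcripts were added up to 55858 genes. CUUC-G counts as deposited were whole numbers for the same genes; 153 values were 0 with a TPM above 0, so they are rounded estimates. In its table the columns marked mI were taken as sgIgfbp5, since the labels mark the IGFBP5-targeted human libraries hI. The MGHU3 tables were not used here, as their transcripts carry no gene names. Table columns matched to no sample numbered 0.

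Estimated counts were rounded. Features were tested by quasi-likelihood in edgeR (version 4.0.16 in R 4.3.3; TMM, filterByExpr, robust, two-sided, Benjamini-Hochberg over all features, threshold 0.05) on the libraries of each comparison. SEs are the absolute log2 fold change over the square root of F. Transcript shares were tested with diffSpliceDGE. The steps were tested on simulated data, where the tests of transcripts and above all of transcript shares found a minority of the changes put in, so a transcript or share that did not pass may still have changed. Alternatives were RLE scaling, DESeq2 1.42.0, library size only, no filter on low counts, limma 3.58.1 on log2(TPM + 1) for genes with a mean of at least 1 TPM, on log2(TPM + 0.1) and without a filter, leaving out each library, blocking on the replicate number, Scd1 and Scd2 summed, and protein-coding transcripts only.

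The 10 genes, the lists and the tests were chosen with earlier results of these data known. Named were all 10 genes, the 4 genes of each list with the highest mean TPM, fixed regulators of SREBP, LXR and ChREBP control, the 5 genes most like Fasn, and transcripts holding at least 5% of a member. A few of these genes are left out of the text. Of the list symbols, Hsd17b8 was not matched. Libraries of a group differed by more than sampling noise, with a chi-square per gene of 2.73 or more. Total counts per library limit precision mainly for Acss2 and for transcripts with few counts.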

Additional observations from a re-analysis of the deposited data

How the results depend on the processing

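Of the alternatives that kept all 10 members, 9 members were called at relapse under all but the limma fits (8 called). With sgIgfbp5 10 were called under all but library size only (9) and the limma fits (8). Scd1 and Scd2 summed as 1 gene left 9 genes, of which 8 were called at relapse and 9 with sgIgfbp5, so no call was lost. Acaca at relapse turned to -0.13 on log2(TPM + 1), with and without a filter, and to -0.14 on log2(TPM + 0.1) (limma adjusted p = 0.398, 0.482 and 0.395). The median over all genes was then -0.12, -0.003147 and -0.13. Acss2 at relapse, not past the threshold in any fit, changed sign to 0.05 without relapsed replicate 2 and to 0.056 without control replicate 3; over single libraries left out it ranged between -0.077 and 0.056 (edgeR adjusted p = 0.717 and 0.71 in those fits). With library size only, the median of all genes in CUUC-G was 0.17, against 0.06 with TMM. The other 8 genes kept direction and call in every alternative. With 1 library left out, the genes called ranged between 10132 and 10496 at relapse and between 9466 and 10391 in CUUC-G, and members called stayed at 9 and 10. Transcripts called ranged between 8374 and 8961 and changed shares between 449 and 515.

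The groups share replicate numbers, but the labels give these no meaning. Deviations of same-numbered libraries correlated by 0.04, 0.05 and 0.01 in the tumours and by 0.08, 0.17 and -0.32 in CUUC-G. Differently numbered libraries correlated by -0.049 to 0.011 in the tumours and by -0.33 to 0.38 in CUUC-G. With 3 libraries in each group, these values cannot decide whether samples were paired or shared a batch. With the replicate block, there were 10472 calls among genes at relapse and 10037 in CUUC-G, and 9 and 10 among members. The block gave 7488 transcripts against 10482 without it, and 306 changed shares against 454. Short or rare transcripts, such as Fads1-202 and Acaca-206, are limited by depth and by the division of shared reads. Separate tumours or cultures behind the libraries are not given, so no value here speaks for other tumours.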

Other observations

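Over all genes, 36.6% were called higher and 36.9% lower in relapsed tumours, and 36.5% higher and 34.3% lower with sgIgfbp5; the lists below were not tested against these shares. Of 19 tested genes of glycerolipid synthesis and lipid droplets, 7 rose, 7 fell and 5 were not past the threshold (edgeR adjusted p under 0.05) in relapsed against control tumours, with a median log2 fold change of 0.05. With sgIgfbp5 against sgScr in CUUC-G, 9 rose, 4 fell and 6 were not past the threshold, with a median of 0.11. Plin2, which coats lipid droplets, averaged 134 ± 3.23 TPM in relapsed and 155 ± 2.74 TPM in control tumours (SD, n = 3 each), and its log2 fold change on counts was -0.07 ± 0.04 (edgeR adjusted p = 0.0974). With sgIgfbp5 it rose by 0.28 ± 0.07 (edgeR adjusted p = 0.0054). Agpat3 rose by 0.36 ± 0.08 with sgIgfbp5, and Gpat4, which starts glycerolipid synthesis, rose by 0.28 ± 0.04 at relapse.

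Of 18 tested genes of fatty acid oxidation, 8 rose, 7 fell and 3 were not past the threshold at relapse, and 2 rose, 7 fell and 9 were not past the threshold with sgIgfbp5. Etfa, which carries electrons from oxidation, averaged 85.6 ± 2.65 TPM in relapsed and 150.4 ± 3.02 TPM in control tumours, a log2 fold change of -0.70 ± 0.05 (edgeR adjusted p = 1.47e-13). With sgIgfbp5 Etfa was not past the threshold (-0.10 ± 0.08, edgeR adjusted p = 0.315). Hadha changed by 0.38 ± 0.05 at relapse and by -0.25 ± 0.07 with sgIgfbp5 (edgeR adjusted p = 2.82e-08 and 0.0098). Etfb was not past the threshold in either comparison. Among 12 AMPK and Trib regulators, 5 rose, 4 fell and 3 were not past the threshold at relapse, and 2 rose, 6 fell and 4 were not past the threshold with sgIgfbp5. Trib3, a pseudokinase induced by stress, averaged 33.1 ± 1.40 TPM in relapsed and 494 ± 15 TPM in control tumours, and 386 ± 17.3 TPM with sgIgfbp5 and 36.1 ± 1.11 TPM with sgScr (SD, n = 3 each). Its log2 fold changes were -3.76 ± 0.04 (edgeR adjusted p = 6.94e-31) and 3.33 ± 0.09 (edgeR adjusted p = 1.42e-10).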
